A study of Mus musculus with 24 samples.

Results

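The combined action of 2 heart transgenes was examined as an interaction, that is, whether the difference made by one transgene depended on the presence of the other. O-GlcNAc is a single sugar, N-acetylglucosamine, that is attached to serine and threonine residues of nuclear and cytoplasmic proteins. OGT is the enzyme that attaches it and OGA the enzyme that removes it, so the pair cycles the mark on and off, and the donor sugar comes from the hexosamine branch of glucose metabolism. In heart muscle the mark is found on contractile, mitochondrial and signalling proteins, and higher levels have been described in hypertrophy and diabetes.

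Whole hearts came from adult C57BL/6J mice without treatment. Of 24 hearts, 6 carried a transgene for OGT together with one for OGA (labelled OGT_TG_x_OGA_TG, DTG here), 6 carried the OGT transgene (OGT_TG), 6 carried the OGA transgene (OGA_TG) and 6 were wild type (WT). Each genotype held 3 males and 3 females. Both transgenes are labelled as cardiac specific, and the sources used here do not give their promoters or the number of founder lines. On log2(FPKM + 1), the interaction was obtained by subtracting the OGA effect seen without the OGT transgene (OGA_TG minus WT) from the OGA effect seen with it (DTG minus OGT_TG). FPKM is a fragment count corrected for transcript length and library size. The same number compares the OGT effect with the OGA transgene (DTG minus OGA_TG) and without it (OGT_TG minus WT), which makes a negative value a smaller rise, or a larger fall, with the OGT transgene when the OGA transgene was also present. Of 19664 rows of the table, 19660 had no missing value, and the 12020 with at least 1 FPKM in at least 6 hearts were tested.

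The libraries held an estimated 11.4 to 17.8 M fragments each, and between 11421 and 12141 rows reached 1 FPKM. OGT_TG replicates 3 and 6 were unlike the rest of their genotype. Along principal component 1, with 40.8% of the variance, they scored 52.7 and 52.9, against 11.4 to 17.9 for the other 4 OGT_TG hearts and -22.6 to 4.58 for the 18 hearts of the other genotypes. Where a called gene named below lost its call without OGT_TG replicates 3 and 6, this is stated, in most cases with the value. The same holds where a gene named by the rule given under processing moved by more than 1.5 times. For Nppa, Col1a1, Col3a1 and Atp2a2, which did not pass the test, no value without these hearts is given. Both hearts were left out after their values were seen, which narrows the spread. Adjusted p-values without them can therefore be too small. OGT_TG and WT hearts share 4 numbers in their sample titles, which the labels do not explain, and DTG and OGA_TG hearts share none with any other genotype. Differences of DTG or OGA_TG hearts from another genotype, and the interaction, therefore cannot be told apart from differences between title numbers. All OGA_TG males carry the number 2086 and all OGA_TG females 2138, so number and sex cannot be told apart there. In OGT_TG and WT hearts, too, no number is found in both sexes. Counts of rows with this number as a block stand beside the main ones. The block allows for likeness between hearts of the same number but cannot separate number from genotype.

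The transgenes themselves were read first. The row OGT, in capitals, was taken as the transgene from its name and values. It stood at 3986, 4716 and 5261 FPKM (lowest, median and highest of 6) in DTG hearts and at 715, 1859 and 2691 FPKM in OGT_TG hearts, against 0.356, 0.522 and 1.11 FPKM in OGA_TG and 0.415, 1.16 and 3.44 FPKM in WT hearts. Every DTG heart was above every OGT_TG heart. On the log2(FPKM + 1) scale its interaction was 2.13 (SE 0.42, limma adjusted p = 0.0062). The hearts that carried both transgenes therefore also carried more OGT transgene RNA, so in every comparison with DTG hearts the presence of the OGA transgene and the level of the OGT transgene cannot be told apart. The OGA row, in capitals, had a mean of 3462 ± 294 FPKM in DTG, 0.00209 ± 0.00512 in OGT_TG, 4122 ± 732 in OGA_TG and 0.00637 ± 0.0101 in WT hearts (SD, n = 6 each). Its interaction was -0.23 (SE 0.11, limma adjusted p = 0.20), a difference that did not pass the test. OGT_TG replicates 3 and 6, the hearts that stood apart, had 1104 and 715 FPKM of the OGT row, the lowest of their genotype.

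The mouse genes for the same enzymes were also called. Ogt (X, 101640060 to 101684351 on mm10) had 23.3, 24.6 and 29.9 FPKM in DTG and 28.8, 31.2 and 35.9 in OGT_TG hearts, against 38.6, 40.5 and 48.5 in OGA_TG and 32.3, 35.4 and 41.6 in WT hearts. DTG hearts lay below all OGA_TG and WT hearts and met the OGT_TG hearts only at their highest value. The interaction was -0.51 (SE 0.10, limma adjusted p = 0.0065). Reads of the mouse gene and of a near-identical transgene could be divided between both rows, which makes the level of Ogt uncertain where the transgene is high. Mgea5, the mouse gene for OGA (chromosome 19, 45750259 to 45783837), had 42.9, 46.6 and 55.7 FPKM in DTG and 38.5, 59.2 and 63.9 in OGT_TG hearts, against 20.8, 23.9 and 29.4 in OGA_TG and 36.6, 41.1 and 48.6 in WT hearts. All OGA_TG hearts lay below all others, and its interaction was 0.57 (SE 0.16, limma adjusted p = 0.038). This call was lost without OGT_TG replicates 3 and 6 (0.38, adjusted p = 0.094) and when any 1 of 10 hearts was left out. The hexosamine genes gave 2 further calls. Gfpt2, an isoform of the enzyme that opens the hexosamine pathway, had 6.65, 7.63 and 8.02 FPKM in DTG and 9.48, 11.9 and 14.2 in OGT_TG, against 6.27, 7.13 and 8.07 in OGA_TG and 5.85, 6.57 and 7.66 in WT hearts. All OGT_TG hearts were above the other 18, and the interaction was -0.71 (SE 0.11, limma adjusted p = 0.00091). Nagk, which salvages N-acetylglucosamine, had an interaction of -0.30 (SE 0.08, adjusted p = 0.036), lost without OGT_TG replicates 3 and 6 and with the title-number block. Of 12 tested genes of O-GlcNAc cycling and hexosamine synthesis, 1 was called higher and 3 lower, with a median interaction of -0.26 beside -0.07 over all 12020 rows.

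Across all rows the interaction was called, at a limma adjusted p under 0.05, for 877 rows, 7.3% of those tested. Of these, 217 were higher (1.81%) and 660 lower (5.49%), and 82 (0.682%) had a size of at least 1 on the log2 scale, 19 higher and 63 lower. With the title-number block 423 were called (106 higher, 317 lower), all among the 877. Without OGT_TG replicates 3 and 6, 557 were called (117 higher, 440 lower), of which 483 were among the 877. The split leaned less to the lower side under 2 other scalings, with 328 higher and 387 lower by median-of-ratios factors and 303 higher and 373 lower by quantile normalization. The median DTG minus OGT_TG difference over all tested rows was -0.11 log2, and 0.00 with median-of-ratios factors. In all 4 of these fits 349 of the 877 were called again in the same direction, 88 higher and 261 lower. With 3 hearts of each genotype in 1 sex, limma called 1 row in males and 0 in females, where 1586 and 1321 rows had an unadjusted p under 0.05.

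The effect of each transgene was then set side by side with and without the other. Between DTG and OGT_TG hearts 3878 rows (32.3%) were called, 604 higher (5.02%) and 3274 lower (27.2%), and 3034 with the block. Between OGA_TG and WT hearts 43 rows (0.358%) were called, 7 higher (0.0582%) and 36 lower (0.3%). That count was 14 with the block, 156 without OGT_TG replicates 3 and 6, and 23 to 75 when 1 heart was left out. The fit used a single estimate of spread per row, shared by all genotypes. Leaving out OGT_TG hearts therefore also changes the count between OGA_TG and WT hearts. Between DTG and OGA_TG hearts 2175 rows (18.1%) were called, 1001 higher (8.33%) and 1174 lower (9.77%), and 1162 with the block. Between OGT_TG and WT hearts 4499 rows (37.4%) were called, 3029 higher (25.2%) and 1470 lower (12.2%), and 5278 with the block. Called changes of at least 1 log2 were fewer. For the OGA transgene they made up 0.957% of rows with the OGT transgene and 0.0416% without it, and for the OGT transgene 0.557% with the OGA transgene and 2.4% without it. Both OGT effects use separate hearts. Across 12018 rows, without the transgene rows, they had a Pearson correlation of 0.60 and a Spearman correlation of 0.55. This is a description across genes, which are not independent replicates. The 1240 rows called in both, 57.1% of those called with OGA and 27.6% of those called without it, went the same way in 1198 cases. Both OGA effects, also from separate hearts, had a Pearson correlation of 0.10 and a Spearman correlation of 0.07. The 26 rows called in both, 0.671% of those called with OGT and 61.9% of those called without it, went the same way in 23 cases.

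**Figure D1:**
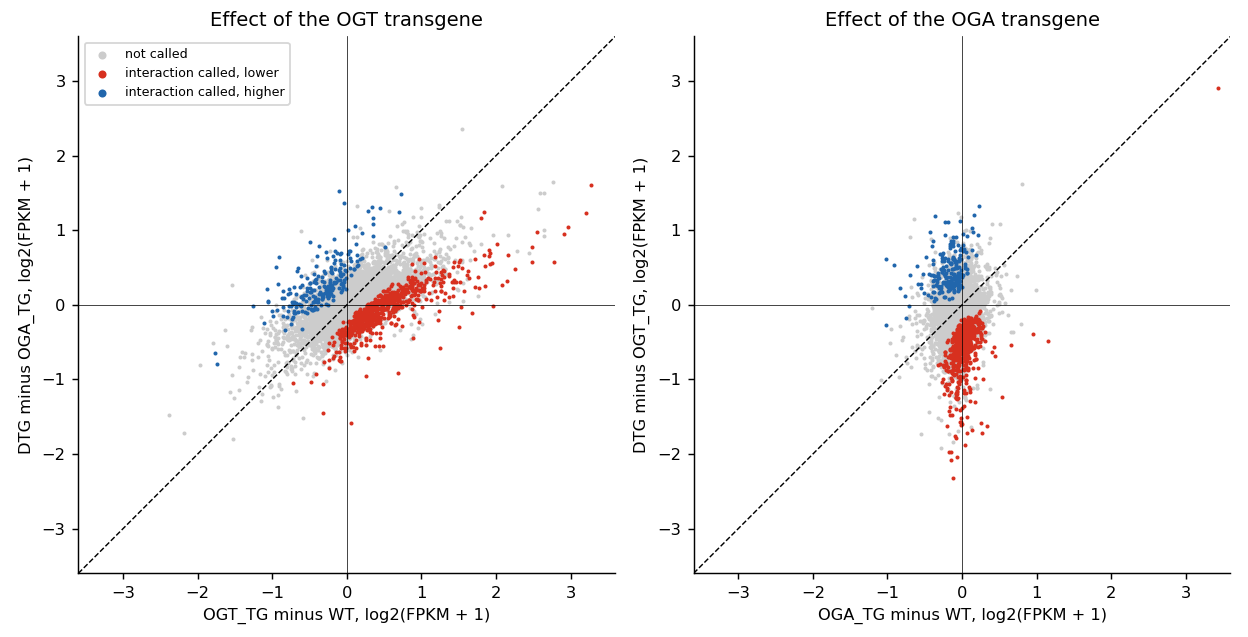
Effect of each transgene on log2(FPKM + 1) with the other transgene present (vertical axes) against its absence (horizontal axes), 1 point per tested row without the 2 transgene rows. Red points are the 660 rows with a lower interaction and blue points the rows with a higher one, and the dashed line marks equal effects. Most red points lie to the right of 0 and under the line in the left panel, and close to 0 on the horizontal axis and below 0 on the vertical axis in the right panel.

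Each called row was also described by the genotype whose mean lay farthest from the mean of the other 3, a description chosen after the values were seen. OGT_TG was that genotype for 608 of the 877 rows (69.3%), with 492 higher there and 116 lower. DTG was the farthest for 216 rows (24.6%), with 59 higher and 157 lower, OGA_TG for 42 (4.79%) and WT for 11 (1.25%). Over all tested rows these shares were 22.5% for DTG, 50.1% for OGT_TG, 16.3% for OGA_TG and 11.0% for WT. All 6 hearts of the genotype lay beyond the other 18 in 56 of the 216 DTG rows, 280 of the 608 OGT_TG rows, 10 of the 42 OGA_TG rows and 1 of the 11 WT rows. Among all tested rows that was so for 0.666% with DTG, 4.58% with OGT_TG, 0.358% with OGA_TG and 0.0832% with WT. Without OGT_TG replicates 3 and 6, the 557 called rows had DTG farthest in 162 (29.1%), OGT_TG in 336 (60.3%), OGA_TG in 44 (7.9%) and WT in 15 (2.69%). Over all tested rows in that fit the shares were 27.6% for DTG, 43.3% for OGT_TG, 18.3% for OGA_TG and 10.9% for WT. The called rows were somewhat more abundant than the rest, with median levels of 13.1 FPKM for the higher and 10.5 FPKM for the lower ones against 8.63 FPKM over all tested rows.

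Of 18 tested natriuretic peptide and fetal stress genes, 5 were called lower and 0 higher (10 had an unadjusted p under 0.05 with limma). Ankrd1, a titin-binding protein of stretched muscle (chromosome 19, 36111961 to 36120099, minus strand), had 899, 1124 and 1356 FPKM in DTG and 2486, 3258 and 5891 FPKM in OGT_TG hearts, against 798, 933 and 1157 in OGA_TG and 591, 908 and 1218 in WT hearts. OGT_TG hearts did not overlap any other genotype, and the other 3 genotypes overlapped each other. The OGT transgene gave 0.27 log2 with the OGA transgene (limma adjusted p = 0.37) and 2.08 log2 without it (adjusted p = 6.0e-08), and the interaction was -1.81 (SE 0.27, limma adjusted p = 0.00091). Nppb, which encodes B-type natriuretic peptide (chromosome 4, 147985788 to 147987205, plus strand), had 151, 161 and 395 FPKM in DTG and 441, 674 and 1874 in OGT_TG, against 193, 249 and 301 in OGA_TG and 163, 290 and 427 in WT hearts. All 6 OGT_TG hearts were above the other 18, and the interaction was -1.80 (SE 0.42, limma adjusted p = 0.014). Acta1, skeletal alpha-actin and a fetal gene of the stressed ventricle, had an interaction of -1.77 (SE 0.47, adjusted p = 0.025), which became -1.34 (adjusted p = 0.064) without OGT_TG replicates 3 and 6.

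Windows before the starts of Ankrd1, Nppb and Thbs4 were searched for a motif of muscle genes, and those that overlapped the annotated gene were left out. Only the stretch before the start of Thbs4, a matrix gene described below with a strong interaction, remained and is shown. It is 250 bases long and reads 5′ to 3′ on the gene's strand (chr13:92794819-92795068, minus strand) up to the RefSeq start on GRCm38.p6. Capitals mark 2 matches, which share a base, to the M-CAT core bound by TEAD factors (CATTCC or its reverse complement GGAATG).
Thbs4: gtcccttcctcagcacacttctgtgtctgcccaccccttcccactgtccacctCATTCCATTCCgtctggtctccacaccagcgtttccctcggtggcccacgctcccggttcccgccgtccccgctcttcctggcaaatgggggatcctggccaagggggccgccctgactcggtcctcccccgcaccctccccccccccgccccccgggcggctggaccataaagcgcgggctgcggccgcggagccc
The first bases of the matches lay 197 and 192 bases before the start. Within windows of 250 bases before to 50 after a start, on both strands, the M-CAT core was found in 14.5% of 620 promoters of genes with a lower interaction, 13.9% of 208 promoters of genes with a higher one, 12.3% of 11844 promoters of tested genes and 14.7% of all 32851 promoters. The AP-1 motif TGANTCA, which reads the same on both strands, was found in 5.65%, 7.69%, 5.03% and 7.81% of the same sets. A match describes letters only and shows no binding.

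The median interaction of these 18 genes was -0.48. The other calls were Xirp2, an actin-binding protein of the intercalated disc, at -1.07 (SE 0.25, adjusted p = 0.016; -0.70 without OGT_TG replicates 3 and 6), and Rcan1, an inhibitor and target of calcineurin, at -0.86 (SE 0.25, adjusted p = 0.038), a call lost with the block. Nppa, which encodes atrial natriuretic peptide, had 1542, 2070 and 2438 FPKM in DTG and 3554, 3943 and 18112 in OGT_TG, against 1566, 2037 and 2484 in OGA_TG and 2180, 2501 and 2999 in WT hearts. Its interaction of -1.19 (SE 0.41) did not pass the test (limma adjusted p = 0.075), though all OGT_TG hearts lay above the rest. Without OGT_TG replicates 3 and 6 the median of the list was -0.12. Each heart's median over the list, as a log2 difference from the WT mean, ran from 0.25 to 0.36 in the other 4 OGT_TG hearts and from -0.04 to 0.29 in DTG hearts.

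**Figure D2:**
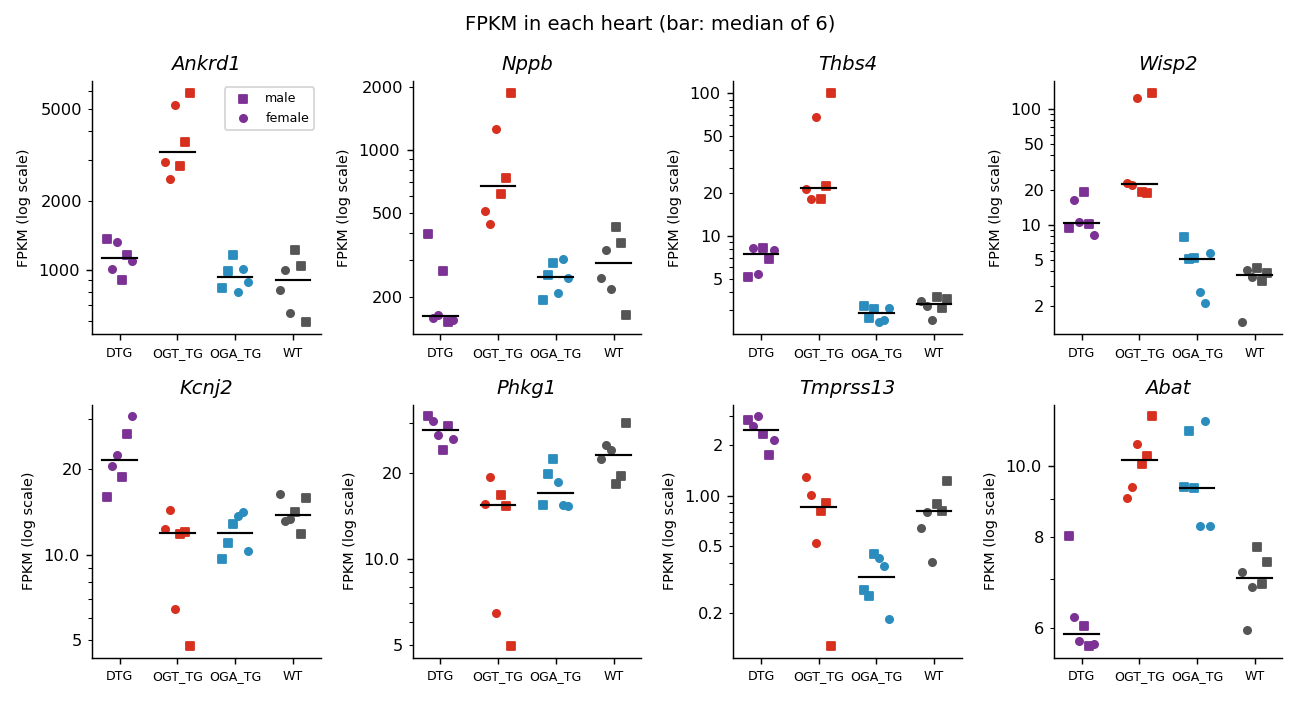
FPKM of 8 named genes in each heart on log axes, with 6 hearts of each genotype, males as squares and females as circles, and a bar at the median. Ankrd1, Nppb, Thbs4 and Wisp2 are highest in OGT_TG, with 2 OGT_TG hearts above the other 4. Kcnj2, Phkg1 and Tmprss13 are highest in DTG, and Abat is higher in OGT_TG and OGA_TG than in WT.

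Lists of extracellular matrix genes and activated fibroblast markers had the most negative medians of the lists with at least 10 tested members. In bulk tissue, fewer cells of a type and less RNA per cell cannot be told apart. Of 38 tested matrix proteins and collagens, 15 were called lower and 0 higher, 37 had a negative estimate, and the median interaction was -0.87. The median OGT effect over the list was 0.53 log2 with the OGA transgene and 1.35 log2 without it. Thbs4, a thrombospondin of injured muscle and matrix (chromosome 13, 92751590 to 92794818), had 5.15, 7.41 and 8.24 FPKM in DTG and 18.2, 21.8 and 101 FPKM in OGT_TG, against 2.46, 2.84 and 3.20 in OGA_TG and 2.57, 3.33 and 3.72 in WT hearts. DTG hearts lay above all OGA_TG and WT hearts and below all OGT_TG hearts. Its interaction was -1.93 (SE 0.42, limma adjusted p = 0.011) and -1.26 without OGT_TG replicates 3 and 6 (adjusted p = 0.00012). Cilp, a matrix protein of activated fibroblasts, had the same order, with 11.7, 18.1 and 22.5 FPKM in DTG and 32.3, 46.9 and 139 in OGT_TG, against 4.38, 4.85 and 5.41 in OGA_TG and 4.37, 5.41 and 5.72 in WT hearts. Its interaction was -1.67 (SE 0.37, limma adjusted p = 0.012). Dcn, the collagen-binding proteoglycan decorin, had 345, 396 and 509 FPKM in DTG and 644, 717 and 889 in OGT_TG, against 324, 349 and 399 in OGA_TG and 325, 366 and 459 in WT hearts. DTG hearts overlapped both lower genotypes, and the interaction was -0.79 (SE 0.14, limma adjusted p = 0.0020). Comp, cartilage oligomeric matrix protein, had the most negative interaction of the named genes at -2.20 (SE 0.65, adjusted p = 0.041), with 8.76, 11.6 and 14.0 FPKM in DTG and 25.9, 31.7 and 274.9 in OGT_TG, against 4.54, 8.62 and 9.81 in OGA_TG and 6.70, 7.84 and 12.7 in WT hearts. Its value was -1.16 without OGT_TG replicates 3 and 6 (adjusted p = 0.0049), where it was no longer the most negative, and its call was lost when any 1 of 16 hearts was left out and with the block. Ltbp2, a latent TGF-beta binding protein, had -1.97 (SE 0.54, adjusted p = 0.030), or -1.11 without OGT_TG replicates 3 and 6 (adjusted p = 0.0019), and lost its call with the block and without DTG replicate 3.

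Several matrix genes did not pass the test. Col1a1, a chain of type I collagen, had 17.3, 22.2 and 25.7 FPKM in DTG and 14.2, 22.6 and 114 in OGT_TG, against 8.63, 13.6 and 16.5 in OGA_TG and 8.87, 13.4 and 20.4 in WT hearts, with an interaction of -0.52 (SE 0.53, limma adjusted p = 0.57). Col3a1 had -0.43 (SE 0.43, adjusted p = 0.57). DTG and OGT_TG hearts overlapped for Col1a1. Without OGT_TG replicates 3 and 6 the median of the matrix list was -0.41, with 15 members called, and with the block it was -0.88 with 4 called. Of 11 tested activated fibroblast and myofibroblast markers, 5 were called lower, all of them also on the matrix list, and the median of -1.29 became -0.50 without both hearts. With the block 2 of these markers were called. Of 12 fibroblast markers 2 were called lower, Dcn and Mfap5, with a median of -0.52. Mfap5 had -1.17, or -0.66 without OGT_TG replicates 3 and 6, and lost its call with the block. The summed FPKM of these 12 was 1270, 1562 and 1672 in DTG and 1872, 2311 and 2998 in OGT_TG hearts, against 1095, 1188 and 1257 in OGA_TG and 1133, 1230 and 1347 in WT hearts. The part of fibroblast number in the matrix result was not tested. Among 19 tested matrix proteases and inhibitors, 4 were called lower and none higher, Timp3, Mmp3, Timp2 and Serpine2. Mmp3, stromelysin, had an interaction of -1.78 (SE 0.39, adjusted p = 0.011). The median of this list was -0.72, or -0.25 without OGT_TG replicates 3 and 6.

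**Figure D3:**
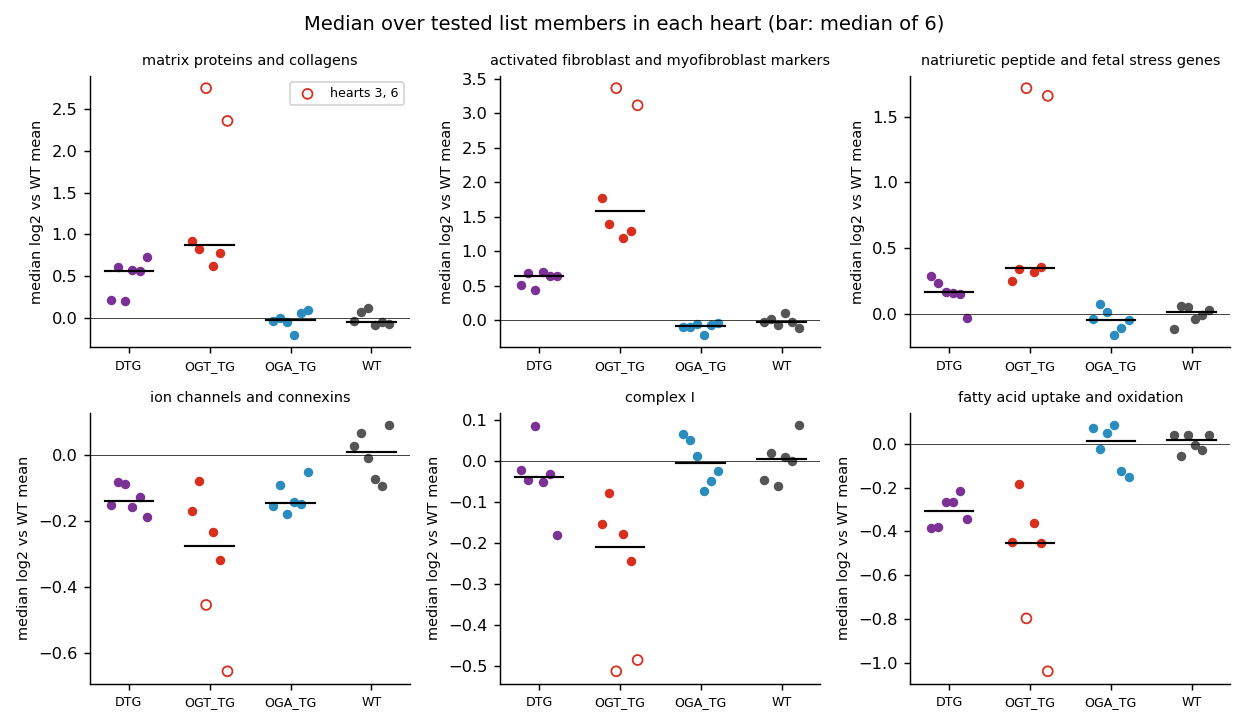
Median over the tested members of 6 gene lists in each heart, as a log2(FPKM + 1) difference from the WT mean, with a bar at the median of 6 hearts and open circles for OGT_TG replicates 3 and 6. In the upper row OGT_TG hearts lie above DTG hearts for the activated fibroblast markers, while the other 4 OGT_TG hearts and the DTG hearts come close for the stress genes. In the lower row the lowest hearts are OGT_TG replicates 3 and 6.

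The connective tissue growth factors followed the same direction. Ctgf (CCN2), a secreted mediator of fibrosis, had 44.9, 55.8 and 94.5 FPKM in DTG and 99.7, 142 and 552 in OGT_TG, against 41.0, 44.1 and 67.1 in OGA_TG and 27.7, 44.8 and 53.7 in WT hearts. All OGT_TG hearts lay above the other 18, and the interaction was -1.83 (SE 0.45, limma adjusted p = 0.018), or -1.21 without OGT_TG replicates 3 and 6 (adjusted p = 0.014). Cyr61 (CCN1) had -1.04 (SE 0.25, adjusted p = 0.018) and Bmp4, a ligand of the BMP branch, -1.24 (SE 0.22, adjusted p = 0.0027). Wisp2 (CCN5) had -1.97 (SE 0.60, adjusted p = 0.047), a call lost when any 1 of 20 hearts was left out, with the block, and without OGT_TG replicates 3 and 6 (-1.11, adjusted p = 0.062). Of 23 tested genes of TGF-beta and CCN signalling, 6 were called lower and 0 higher, with a median of -0.44, or -0.26 without both hearts, and 3 were called in that fit and 3 with the block. The 2 remaining calls, the activin subunit gene Inhba and the receptor gene Tgfbr1, were lost in both of these fits. Krt18, a keratin of simple epithelia and mesothelium, had 0.352, 0.550 and 1.17 FPKM in DTG and 2.19, 3.36 and 10.0 in OGT_TG, against 0.286, 0.652 and 1.09 in OGA_TG and 0.111, 0.419 and 0.473 in WT hearts. OGT_TG hearts did not overlap the others, and the interaction was -1.98 (SE 0.33, limma adjusted p = 0.0016). The other 3 tested epicardial and mesothelial markers, Tbx18, Wt1 and Aldh1a2, were not called.

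Among immune genes, Vcam1, an adhesion molecule for leukocytes, had -0.64 (SE 0.15, adjusted p = 0.014), and Il33, a cytokine released from damaged cells, -0.71 (SE 0.17, adjusted p = 0.017). Of 31 cytokine, chemokine and complement genes, 6 were called lower and 0 higher, with a median of -0.40, or -0.18 without OGT_TG replicates 3 and 6. None of 20 tested macrophage and monocyte markers was called (2 had an unadjusted p under 0.05 with limma), and their median of -0.38 became -0.03 without both hearts. Their summed FPKM was 258, 295 and 371 in DTG and 319, 360 and 764 in OGT_TG, against 226, 262 and 270 in OGA_TG and 243, 272 and 291 in WT hearts. Of 25 interferon and antigen presentation genes, 1 was called (4%, beside 7.3% over all tested rows), Ifit2, at -0.62 (SE 0.14, adjusted p = 0.015).

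Of 30 p53 target and cell death genes, 2 were called lower (6.67%), near the 7.3% called over all tested rows. Of 31 ubiquitin ligase, proteasome and autophagy genes, 1 was called higher and 4 lower (16.1%). Bcl2, which blocks apoptosis at the mitochondrion, had 1.98, 2.15 and 2.46 FPKM in DTG and 4.11, 5.30 and 7.28 in OGT_TG, against 1.89, 2.02 and 2.17 in OGA_TG and 1.40, 1.78 and 2.69 in WT hearts. OGT_TG hearts did not overlap the others, and the interaction was -1.06 (SE 0.14, limma adjusted p = 0.00033). Lamp1, a major lysosomal membrane protein, differed less but with narrow spread, with 224, 231 and 240 FPKM in DTG and 299.9, 317 and 325 in OGT_TG, against 207, 214 and 219.9 in OGA_TG and 223, 229.8 and 237 in WT hearts. DTG and WT hearts covered nearly the same range, and the interaction was -0.33 (SE 0.05, limma adjusted p = 0.00091). The autophagy gene Becn1 (-0.37, SE 0.09, adjusted p = 0.017) and the lysosomal protease gene Ctsl (-0.42, SE 0.09, adjusted p = 0.012) were also called lower. Lrp11, which encodes a membrane protein of the LDL receptor-related family, had 0.619, 0.763 and 0.955 FPKM in DTG and 2.35, 2.81 and 3.06 in OGT_TG, against 0.845, 1.23 and 1.42 in OGA_TG and 0.974, 1.15 and 1.52 in WT hearts. DTG hearts lay below all WT hearts and OGT_TG hearts above them. Lrp11 was named for its small p (interaction -1.02, SE 0.11, limma adjusted p = 4.1e-05), after its values were seen. Prkar1a, a regulatory subunit of protein kinase A, had 174, 187 and 210.5 FPKM in DTG and 258, 324 and 404 in OGT_TG, against 175, 190.2 and 217 in OGA_TG and 178, 196 and 248 in WT hearts, with an interaction of -0.73 (SE 0.13, adjusted p = 0.0031).

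Mitochondrial genes leaned the other way by small amounts, and few passed the test. All 42 tested genes of complexes II to V of the respiratory chain and 34 of 35 genes of complex I had a positive estimate. Of the first list 4 were called higher (9.52%) and of the second 3 (8.57%), near the 7.3% called over all tested rows. The medians were 0.28 and 0.26. The OGT transgene effect had a list median of -0.01 log2 for complex I with the OGA transgene and -0.27 without it. Ndufb6, a complex I subunit, had 196, 201 and 217 FPKM in DTG and 160.3, 174 and 181 in OGT_TG, against 189, 202 and 218 in OGA_TG and 195, 203 and 217 in WT hearts. OGT_TG hearts were the lowest, and the interaction was 0.24 (SE 0.06, limma adjusted p = 0.026). The call was lost without OGT_TG replicates 3 and 6 (0.20, adjusted p = 0.059) and when any 1 of 4 hearts was left out. With the block no member of the 2 lists was called. Without OGT_TG replicates 3 and 6 the medians were 0.17 for complexes II to V and 0.11 for complex I, with 1 and 0 members called. Of 31 genes of fatty acid uptake and oxidation, 3 were called higher (9.68%, also near 7.3%) and 0 lower. These were Etfb, Plin5 and Eci1, and the list median was 0.25. Etfb, the beta subunit of the electron transfer flavoprotein, had 515, 683 and 843 FPKM in DTG and 312, 395 and 616 in OGT_TG, against 488, 622 and 777 in OGA_TG and 504, 677 and 790 in WT hearts. All 4 groups overlapped, and the interaction was 0.82 (SE 0.22, adjusted p = 0.030). The 3 calls were lost with the block. Without OGT_TG replicates 3 and 6 those of Etfb (0.64, adjusted p = 0.091) and Plin5 (0.64, adjusted p = 0.11) were lost and Eci1 had 0.33, and the list's median was 0.07 without both hearts. The list's median OGT effect was negative both with the OGA transgene (-0.28) and without it (-0.58), and 16 and 25 of its 31 members were called lower in these comparisons. Of 24 genes of branched chain amino acid and ketone catabolism none was called (9 had an unadjusted p under 0.05), with a median of 0.28, or 0.06 without both hearts.

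**Figure D4:**
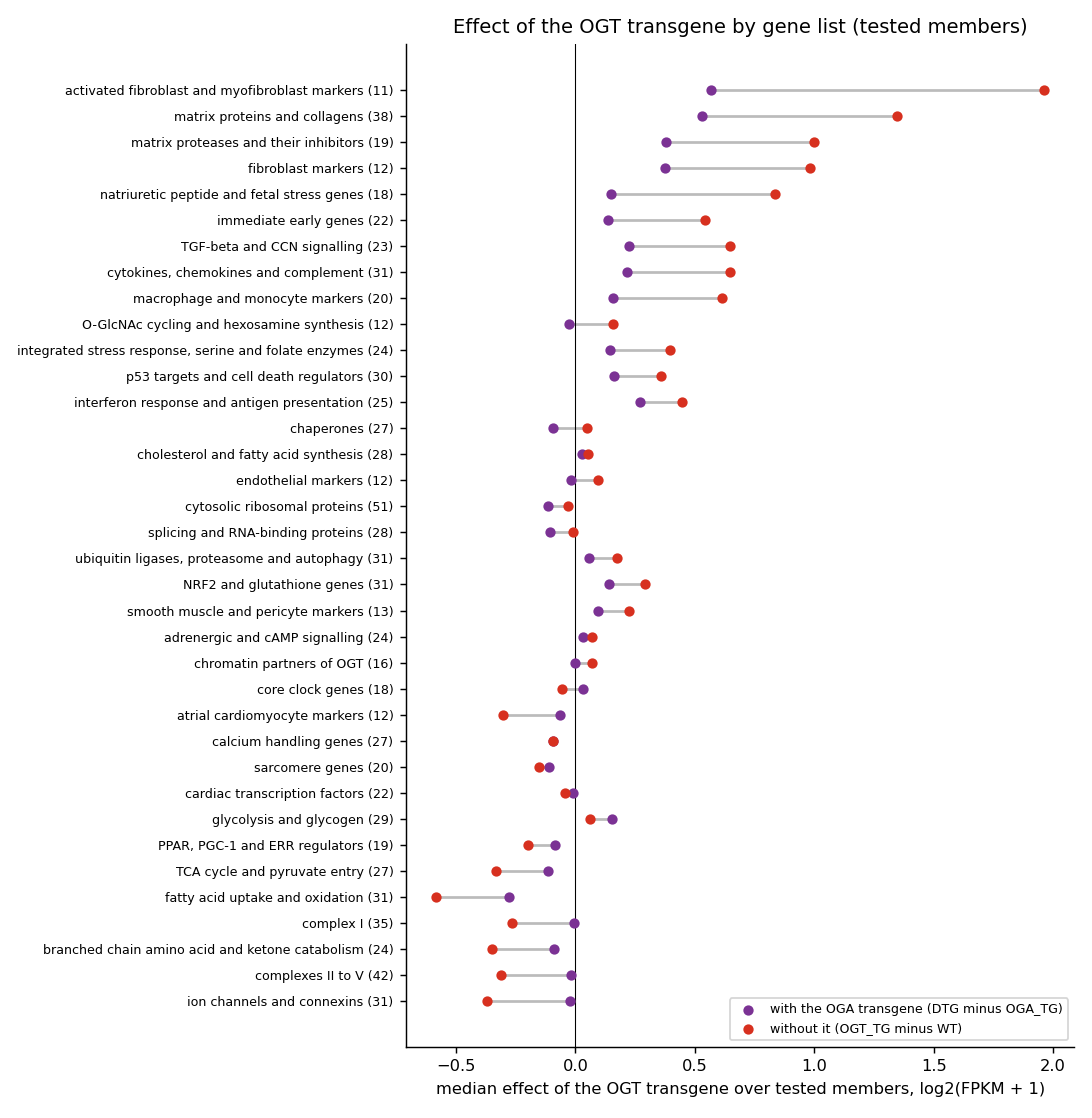
Median effect of the OGT transgene over the tested members of each list with at least 10 of them, with the OGA transgene (purple, DTG minus OGA_TG) and without it (red, OGT_TG minus WT), in log2(FPKM + 1). Lists run from the most negative median interaction at the top to the most positive at the bottom, and the number of tested members follows each name. The purple points lie nearer 0 for the matrix, fibroblast and stress lists at the top and for the mitochondrial and ion channel lists at the bottom.

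Genes of excitation gave calls in both directions. Of 31 tested ion channel and connexin genes, 6 were called higher and 2 lower, with a median of 0.38, or 0.22 without OGT_TG replicates 3 and 6. Kcnj2, which encodes the inward rectifier Kir2.1 (chromosome 11, 111066164 to 111076821), had 15.9, 21.5 and 30.7 FPKM in DTG and 4.77, 11.9 and 14.4 in OGT_TG, against 9.66, 11.9 and 14.1 in OGA_TG and 11.8, 13.8 and 16.4 in WT hearts. DTG hearts lay above all OGT_TG and OGA_TG hearts and overlapped WT hearts at their lowest value. The interaction was 1.34 (SE 0.26, limma adjusted p = 0.0062), and 0.99 (adjusted p = 0.0027) without OGT_TG replicates 3 and 6. Kcnq1, the channel of the slow delayed rectifier current, had 23.5, 25.8 and 29.8 FPKM in DTG and 16.9, 18.9 and 24.5 in OGT_TG, against 13.9, 17.98 and 20.4 in OGA_TG and 19.5, 21.7 and 26.0 in WT hearts. OGA_TG hearts were low and DTG hearts high, and each of these overlapped both OGT_TG and WT hearts. The interaction was 0.75 (SE 0.13, limma adjusted p = 0.0026). Hcn2, a pacemaker channel, had 4.63, 5.80 and 6.51 FPKM in DTG and 8.28, 10.1 and 12.7 in OGT_TG, against 6.88, 8.85 and 10.2 in OGA_TG and 7.32, 8.83 and 9.69 in WT hearts. Every DTG heart was below the other 18, and the interaction was -0.70 (SE 0.14, limma adjusted p = 0.0076). Among the connexins, Gja1, the main ventricular connexin, was called higher at 0.45 (SE 0.12, adjusted p = 0.022; not called with quantile normalization) and Gjc1, a connexin of the conduction system, lower at -0.48 (SE 0.12, adjusted p = 0.018; not called without OGT_TG replicates 3 and 6). Of 27 calcium handling genes, 2 were called higher, Ryr2 and Stim1, and 2 lower, S100a1 and Sri. The list's median was 0.05, or -0.02 without OGT_TG replicates 3 and 6, where only S100a1 kept its call. Ryr2 had 0.42 (SE 0.12, limma adjusted p = 0.034), or 0.28 without both hearts (adjusted p = 0.069). The call of Ryr2 was also lost when any 1 of 9 hearts was left out. Sri had -0.38 (SE 0.09, limma adjusted p = 0.018), or -0.33 without both hearts (adjusted p = 0.051). S100a1, a calcium sensor that binds the ryanodine receptor and the calcium pump, had 639, 758 and 807 FPKM in DTG and 911, 949 and 1041 in OGT_TG, against 879, 959 and 1013 in OGA_TG and 874, 956 and 994 in WT hearts. All DTG hearts lay below the other 18, and the interaction was -0.38 (SE 0.08, limma adjusted p = 0.0076). Atp2a2, the calcium pump SERCA2, had a mean of 2958 FPKM in DTG, 2284 in OGT_TG, 4452 in OGA_TG and 4453 in WT hearts, and its interaction of 0.41 (SE 0.16) did not pass the test (adjusted p = 0.11).

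The following genes had DTG hearts apart from both single transgenic genotypes, and all but Phkg1 also had them apart from WT. Tmprss13, a membrane serine protease gene, had 1.75, 2.46 and 2.97 FPKM in DTG and 0.128, 0.858 and 1.29 in OGT_TG, against 0.186, 0.328 and 0.449 in OGA_TG and 0.406, 0.807 and 1.22 in WT hearts. Every DTG heart was above the other 18, and the interaction was 1.40 (SE 0.19, limma adjusted p = 0.00065). Pla2g5, a secreted phospholipase A2, had 31.8, 35.0 and 36.1 FPKM in DTG and 6.85, 22.8 and 29.3 in OGT_TG, against 18.4, 19.0 and 22.4 in OGA_TG and 19.8, 23.7 and 25.9 in WT hearts, again with all DTG hearts above the rest. Its interaction was 1.17 (SE 0.29, limma adjusted p = 0.020), or 0.71 (adjusted p = 0.00057) without OGT_TG replicates 3 and 6. Chosen after their values were seen, Tnfaip2 had a mean of 34.4 ± 4.52 FPKM in DTG, 22.6 ± 2.18 in OGT_TG, 20.4 ± 0.816 in OGA_TG and 21.99 ± 2.58 in WT hearts (SD, n = 6 each), and an interaction of 0.68 (SE 0.11, limma adjusted p = 0.0015). Ap1s2, a subunit of a clathrin adaptor, had a mean of 9.92 ± 0.799 FPKM in DTG, 18.4 ± 1.97 in OGT_TG, 15.4 ± 1.72 in OGA_TG and 16.7 ± 1.75 in WT hearts (SD, n = 6 each) and an interaction of -0.71 (SE 0.11, limma adjusted p = 0.0013). Both had all DTG hearts beyond the other 18. Phkg1, the muscle catalytic subunit of phosphorylase kinase, had 24.1, 28.2 and 31.6 FPKM in DTG and 4.94, 15.5 and 19.3 in OGT_TG, against 15.3, 17.0 and 22.3 in OGA_TG and 18.2, 23.2 and 30.03 in WT hearts. DTG overlapped WT but neither single transgenic genotype, and the interaction was 1.54 (SE 0.32, limma adjusted p = 0.0076).

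A further set of genes differed between OGA_TG and WT hearts. Abat, GABA aminotransferase, had the smallest p of the genes named by rule, with 5.67, 5.89 and 8.02 FPKM in DTG and 9.03, 10.2 and 11.7 in OGT_TG, against 8.27, 9.33 and 11.5 in OGA_TG and 5.96, 7.02 and 7.74 in WT hearts. Each transgene alone gave higher levels than WT with no overlap, while DTG hearts overlapped WT hearts. The OGA effect was -0.63 with the OGT transgene and 0.41 without it, and the interaction was -1.04 (SE 0.11, limma adjusted p = 4.1e-05). 2810474O19Rik (Resf1 in the annotation) had a mean of 7.34 ± 1.72 FPKM in DTG, 10.1 ± 3.42 in OGT_TG, 10.2 ± 1.03 in OGA_TG and 4.87 ± 1.09 in WT hearts (SD, n = 6 each), and an interaction of -1.33 (SE 0.20, adjusted p = 0.00091). Vmn1r220, a vomeronasal receptor gene, was listed at 0 in every OGT_TG and WT heart and at 4.68, 6.54 and 8.07 FPKM in DTG hearts and 8.14, 9.35 and 12.3 in OGA_TG hearts, so its values followed the OGA transgene. Its interaction was -0.51 (SE 0.13, adjusted p = 0.019). In the opposite direction, Hsd17b7, an enzyme of cholesterol and steroid synthesis, had 7.29, 8.09 and 9.87 FPKM in DTG and 6.43, 8.25 and 11.1 in OGT_TG, against 3.58, 4.17 and 5.05 in OGA_TG and 6.02, 7.07 and 10.9 in WT hearts. OGA_TG hearts lay below all others, and the interaction was 0.69 (SE 0.18, adjusted p = 0.022), a call lost with the block and without OGT_TG replicates 3 and 6 (0.59, adjusted p = 0.065). Outside this set, glycogen genes had interactions called in both directions. Ugp2, which makes UDP-glucose, was called lower at -0.58 (SE 0.11, adjusted p = 0.0041), as was Gyg, the glycogen primer glycogenin, at -0.56 (SE 0.12, adjusted p = 0.011). Gys1, muscle glycogen synthase, was called higher at 0.47 (SE 0.12, adjusted p = 0.020), a call lost without OGT_TG replicates 3 and 6. Of 29 tested glycolysis and glycogen genes, 2 were called higher and 3 lower.

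Some groups gave few or no calls, where 7.3% of all tested rows were called, so that 0 or 1 call in a list of this size is near the background. None of 18 core clock genes, 22 cardiac transcription factors, 16 chromatin partners of OGT, 27 chaperones or 19 PPAR, PGC-1 and ERR regulators was called by limma, where 3, 8, 1, 10 and 2 had an unadjusted p under 0.05. Of 20 sarcomere genes 1 was called, Myom2, an M-band protein, at -0.51 (SE 0.12, adjusted p = 0.014), and of 51 cytosolic ribosomal protein genes 3 were called lower. Of 8 tested ventricular cardiomyocyte markers 1 was called, Ryr2, and 0 without OGT_TG replicates 3 and 6. The summed FPKM of these markers was 47198, 50902 and 53072 in DTG and 41212, 49751 and 52728 in OGT_TG, against 54359, 58045 and 60019 in OGA_TG and 56272, 60472 and 61838 in WT hearts. None of 12 endothelial and 13 smooth muscle and pericyte markers was called, with 1 and 1 at an unadjusted p under 0.05. None of the 6 markers of lung and thymus tissue found in the table reached the expression minimum.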

How the data were processed

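RNA was measured in 24 whole hearts by paired-end sequencing of stranded poly(A) libraries, per the labels' protocols. The deposited table holds FPKM values per gene, made by the authors. The submitters' processing notes name TopHat, StringTie, SAMtools, FastQC, Cuffdiff 2.2.1 and the build mm10, without their order. FPKM values are not counts, so no count test was run, and how reads of the mouse genes and the transgenes were divided is not given in the sources used here. Depth was estimated from ratios of low values, of which 57.5% to 72.2% per library were whole multiples within 0.01 log2, so these depths are approximate.

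Rows with at least 1 FPKM in at least 6 libraries were tested on log2(FPKM + 1) with limma 3.58.1 in R 4.3.3, with genotype means, a sex term and a variance trend, and p-values were adjusted by Benjamini-Hochberg over all 12020 tested rows. Fold changes of low genes are understated on this scale. A row that joins several gene symbols was kept (328 tested, 27 called). The script was tested on simulated data.

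The genotype contrast and the 45 gene lists were chosen with earlier results of these data known. Named genes were the transgene rows and their mouse genes, the 10 largest called changes each way at a mean of at least 2 FPKM in 1 genotype with the same sign in both sexes, up to 3 called members per list by adjusted p, and up to 5 genes for which both OGA effects were called. Members of described lists could also be named, and some genes that met the rule are not reported here. Deviations of same-numbered OGT_TG and WT hearts had correlations of 0.116, 0.485, 0.261 and 0.100 for the 4 shared title numbers. WT hearts numbered 2048 and 2168 matched the OGT_TG hearts of their own number best. Those numbered 2047 and 2169 matched OGT_TG hearts of another number best (2168 and 2048). The number was also fitted as a random block (correlation 0.26). The closest pair of hearts within a genotype had an SD of 0.130 log2 (OGA_TG replicates 1 and 2), against 0.138, 0.151 and 0.147 for the closest pairs of DTG, OGT_TG and WT hearts, so no library was counted as a repeat. Nothing in the labels says how animals were chosen, and p-values measure the spread between these hearts. Gene positions were from GENCODE on mm10 and promoters from RefSeq on GRCm38.p6.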

Additional observations from a re-analysis of the deposited data

Results flagged for a closer look

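Within a genotype, a heart far from the other 5 was found for 24 of 336 groups of 6 hearts (84 named genes in 4 genotypes), where chance flags about 1 in 20 groups. In DTG hearts, replicate 1 stood apart for Cenpf (8.335 FPKM) and Abat (8.019 FPKM), replicate 3 for Atp5g3 (1743 FPKM), replicate 4 for Mmp3 (4.52 FPKM), and replicate 6 for S100a1 (638.5 FPKM), Ctsl (104 FPKM) and Ifit2 (11.81 FPKM). In OGT_TG hearts, replicate 2 stood apart for the OGA row (0.01255 FPKM). The search looks for a single heart far from the rest. Hearts that lie apart together, such as OGT_TG replicates 3 and 6, can therefore hide each other, and few flags do not show a narrow spread.

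In OGA_TG hearts, replicate 1 stood apart for the OGT row (1.106 FPKM), Il33 (1.459 FPKM) and Rpl22 (56.4 FPKM), replicate 4 for Ryr2 (167 FPKM), and replicate 5 for Eci1 (208.8 FPKM) and Slc7a1 (10.01 FPKM). In WT hearts, replicate 1 stood apart for Wisp2 (1.452 FPKM), and replicate 2 for Comp (12.69 FPKM) and Rpl3 (189.5 FPKM). WT replicate 6 held 7 of the 24 flags, for Lingo3 (5.902 FPKM), Krt18 (0.1111 FPKM), Myom2 (403.1 FPKM), Eci1 (252.4 FPKM), Sdhc (490.5 FPKM), Ifit2 (4.28 FPKM) and Mfap5 (10.83 FPKM). The test of the difference between the male and female interactions called 0 rows with limma, and 137 had an unadjusted p under 0.05.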

How the results depend on the processing

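No count, and none of the 84 genes named by rule, changed direction under any alternative tried, but several list medians did. Genes named only as list members or after their values were seen were not followed for direction. The calcium handling list's median of 0.05 became -0.02 without OGT_TG replicates 3 and 6, -0.01 in females and -0.03 with library weights. Among others, without both hearts the sarcomere list went from 0.08 to -0.001, core clock genes from 0.01 to -0.04, and NRF2 and glutathione genes from -0.06 to 0.04. With median-of-ratios factors, smooth muscle and pericyte markers went from -0.05 to 0.02 and chromatin partners of OGT from -0.04 to 0.02. The 877 interaction calls (217 higher, 660 lower) became 2085 (471, 1614) with library weights, 146 (32, 114) at an adjusted p under 0.01, 82 (19, 63) at a size of at least 1 log2, 557 (117 higher) without OGT_TG replicates 3 and 6, and 423 (106, 317) with the title number as a replicate block. Males alone gave 1 (0, 1) and females alone 0 (0, 0). Median-of-ratios factors gave 328 higher and 387 lower, and quantile normalization 373 lower. With 1 heart left out, 515 to 1459 rows were called, 122 to 417 higher and 387 to 1042 lower. The count moved by more than 1.5 times without DTG replicate 2 (564) or 3 (526), OGT_TG replicate 2 (1459) or 3 (523), OGA_TG replicate 5 (539), and WT replicate 2 (568) or 6 (515).

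The OGA effect with the OGT transgene (3878 called) gave 2176 at an adjusted p under 0.01, 115 at 1 log2, 1420 in males, 419 in females and 2996 to 4206 with 1 heart left out. Without the OGT transgene (43) it gave 24 by quantile normalization, 319 with weights, 21 at 0.01, 5 at 1 log2, 6 in males, 4 in females, 156 without OGT_TG replicates 3 and 6, 14 with the block and 23 (without OGA_TG replicate 5) to 75 (without OGT_TG replicate 6) with 1 heart left out. The OGT effect with the OGA transgene (2175) gave 3874 with weights, 1117 at 0.01, 67 at 1 log2, 360 in males, 658 in females, 1162 with the block and 1728 to 2527 with 1 heart left out. Without it (4499) it gave 2844 at 0.01, 288 at 1 log2, 2061 in males, 1409 in females and 3614 to 4645 with 1 heart left out. Of 83 called genes named by rule, 18 lost their call without OGT_TG replicates 3 and 6, and 25 with the block. With median-of-ratios factors 7 lost it and with quantile normalization 9, and 62 kept it with any 1 heart left out. The causes were not tested. At these depths the values of rows near 1 FPKM are the least precise.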
